A study of Mus musculus with 6 samples.

Results

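The 10 genes described here encode the glycolysis enzymes Hk1, Hk2, Gpi1, Pfkl, Pfkp, Aldoa, Pgk1, Eno1, Pkm and Ldha, which together run from hexokinase to lactate dehydrogenase. They were taken by gene symbol from a table of 55487 gene IDs. The 10 symbols matched 11 gene IDs, since Aldoa was listed under a second ID (chr7:126800790-126809108) that held 0 counts in 5 libraries and 1 count in WT replicate 1. That second entry was not tested, and all 10 genes in their main entries passed the filter on low counts. Rows were matched by gene symbol and not by a measured value, but the genes were chosen with earlier results of these data known.

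The libraries hold messenger RNA of marginal zone (MZ) B cells, the splenic B cells that sit at the edge of the white pulp and answer blood-borne antigens early. B cells were first enriched by negative selection and MZ B cells were then flow-sorted. There were 3 libraries labelled CD55KO, from mice that lack CD55, and 3 labelled WT, from C57BL/6 mice, all 14 weeks old and with no treatment named. CD55, or decay-accelerating factor, protects a cell's own membrane against complement. The sources used here do not give the knockout allele, the cells in which it acts, the strain background of the CD55KO mice, or whether a library came from 1 mouse or from pooled mice. If libraries of a genotype shared mice, the p-values measure a spread that may be technical.

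Glycolysis turns glucose into pyruvate in the cytosol and yields ATP without oxygen, and lactate dehydrogenase then turns pyruvate into lactate and restores NAD+. Phosphofructokinase catalyses the committed step and is the main point of control. Resting B cells are known for a low glycolytic rate that increases when they are activated, and the transcription factors HIF-1 and MYC are known to act on many genes of the pathway.

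Between CD55KO and WT MZ B cells none of the 10 glycolysis genes passed the test over all genes, and 9 of them lay between 0.952 and 1.04 times their WT level. The exception was Pfkl, the liver-type subunit of phosphofructokinase. Its level was higher in all 3 CD55KO libraries than in any WT library, 1.31-fold on average, and edgeR's quasi-likelihood test with Benjamini-Hochberg adjustment gave it an adjusted p of 0.0501, just above the threshold of 0.05. Pfkp, the platelet-type subunit of the same enzyme, had a fold of 1.04.

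Total counts were between 24961343 and 29209647 in the CD55KO libraries and between 20056111 and 30784090 in the WT libraries. Levels are given in CPM, counts relative to a library total that was adjusted by edgeR's trimmed mean of M values (TMM). Cd55 itself averaged 7.53 ± 1.36 CPM in CD55KO cells and 118 ± 7.69 CPM in WT cells (SD, n = 3 each), so that the targeted gene separated the libraries as labelled. The 8 MZ B cell markers summed to between 11116 and 12018 CPM in CD55KO and between 10851 and 12337 CPM in WT libraries, and Cr2 and Cd1d1 were among those measured. Markers of other cells differed more. The 12 cycling-cell markers summed to between 287 and 327 CPM in CD55KO libraries and between 318 and 534 CPM in WT libraries, with the highest sum in WT replicate 1. All 12 had a log2 fold change below 0, and 0 were called. Of them 5 had an unadjusted p under 0.05 in edgeR's test, beside 8.60% of all genes. For 3 every CD55KO library lay below every WT library, beside 6.84% of all genes. The 8 germinal centre markers summed to between 20.7 and 30.9 CPM in CD55KO libraries and between 27.2 and 75.3 CPM in WT libraries, and 7 of them had a log2 fold change below 0. Of the 8, 1 was called, Gcsam, at 1.06 ± 0.476 CPM in CD55KO and 3.74 ± 1.26 CPM in WT libraries (SD, n = 3 each; log2 fold change -1.81, adjusted p = 0.0343 in edgeR's test). The 8 plasma cell markers summed to between 917 and 1103 CPM in CD55KO and between 1051 and 1183 CPM in WT libraries. Mzb1 made up most of this sum, at 845 ± 85.1 CPM in CD55KO and 887 ± 87.7 CPM in WT libraries (SD, n = 3 each), so the sum mainly follows that gene. Of 7 tested plasma cell markers 6 had a log2 fold change below 0, and Xbp1 was called, at 78.5 ± 6.21 CPM in CD55KO libraries, against 118 ± 14.0 CPM in WT libraries (SD, n = 3 each; log2 fold change -0.59, adjusted p = 0.00471 in edgeR's test). The 8 macrophage markers summed to between 15.6 and 21.7 CPM in CD55KO and between 10.9 and 14.7 CPM in WT libraries, without overlap. Spic made up most of the CD55KO sums, at 13.4, 10.7 and 11.2 CPM, against 6.02, 7.50 and 8.28 CPM in WT libraries. The separation of the sums thus mainly follows that gene. Cd5l, at a lower level, was also higher in CD55KO without overlap. Adgre1 and C1qb had higher means in CD55KO with overlap, while C1qa, C1qc, Vcam1 and Marco had lower means there. The 7 erythroid markers ranged from 36.2 to 2002 CPM in CD55KO and from 106 to 4388 CPM in WT libraries. The 7 T cell markers summed to between 0.971 and 1.51 CPM in CD55KO and between 0.534 and 0.924 CPM in WT libraries, without overlap. Only 2 of them reached 10 counts in any library. The 6 neutrophil markers summed to between 0.0350 and 0.0405 CPM in CD55KO and between 0.0486 and 0.391 CPM in WT libraries, with Camp and Elane at 0. None of these 6 reached 10 counts in a library. In bulk RNA, a change in the number of cells of a type and a change in RNA per cell cannot be told apart. What part, if any, these other cells have in the glycolysis values was not tested.

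The first principal component of all tested genes, 28.8% of the variance, set WT replicate 1 apart at one end, and the second, 22.5%, ordered the CD55KO libraries on one side of the WT libraries. WT replicate 1 was also the library with the lowest level of 5 of the 10 glycolysis genes, Hk2, Pfkl, Pfkp, Aldoa and Eno1. For each gene that rests on it, the value without that library is given below.

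Sequences upstream of the main transcripts of Pfkl, Pfkp and Pgk1 are shown first. Pfkl had the largest fold of the 10 genes, Pfkp encodes its partner subunit, and Pgk1 is a long-known target of HIF-1. Each is the stretch upstream of the start of the gene's main transcript that overlaps no annotated exon, from RefSeq on GRCm38.p6, written 5′ to 3′ on the gene's strand. Capitals mark the hypoxia-response core, searched as ACGTG or GCGTG on both strands. The Pfkl stretch is chr10:78009808-78010004 on the minus strand, 197 bases with 1 match. It lies inside the annotated span of Pfkl, whose transcript Pfkl-202 has exon bases in the same upstream window. The Pfkp stretch is chr13:6648778-6649021 on the minus strand, 244 bases with 3 matches. The Pgk1 stretch is chrX:106186850-106187099 on the plus strand, 250 bases with 2 matches, the second of them on the opposite strand.
Pfkl: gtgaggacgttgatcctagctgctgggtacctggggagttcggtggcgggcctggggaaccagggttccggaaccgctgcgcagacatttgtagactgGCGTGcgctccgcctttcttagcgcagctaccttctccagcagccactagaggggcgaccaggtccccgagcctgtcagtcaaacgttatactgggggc
Pfkp: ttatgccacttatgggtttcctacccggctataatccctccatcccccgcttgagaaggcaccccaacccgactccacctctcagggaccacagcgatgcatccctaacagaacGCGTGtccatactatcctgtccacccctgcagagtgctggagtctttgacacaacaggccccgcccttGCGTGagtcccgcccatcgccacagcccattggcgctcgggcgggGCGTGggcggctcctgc
Pgk1: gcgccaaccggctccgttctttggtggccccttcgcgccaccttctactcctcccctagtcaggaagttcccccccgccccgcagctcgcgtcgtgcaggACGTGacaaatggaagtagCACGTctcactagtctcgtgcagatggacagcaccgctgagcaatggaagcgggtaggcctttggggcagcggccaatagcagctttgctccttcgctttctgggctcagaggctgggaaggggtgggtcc

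All 10 genes had an entry in the RefSeq promoter table. Over the full 250 bases upstream of the start nearest the principal transcript, 7 of the 10 held ACGTG or GCGTG, beside 38.6% of 32851 such windows of all genes. The E-box CACGTG, the core that MYC binds and one that contains ACGTG, was in none of the 10 windows, beside 6.02% of all windows. Some of the 10 genes had further windows at other starts. With every window of a gene counted, 9 of the 10 genes held ACGTG or GCGTG, beside 41.5% of 27025 genes. CACGTG was then in 1 of the 10, beside 6.86% of genes. Both Pfkl and Pfkp held the hypoxia-response core. A match to these letters is a description of the sequence and not a binding site.

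**Figure D1:**
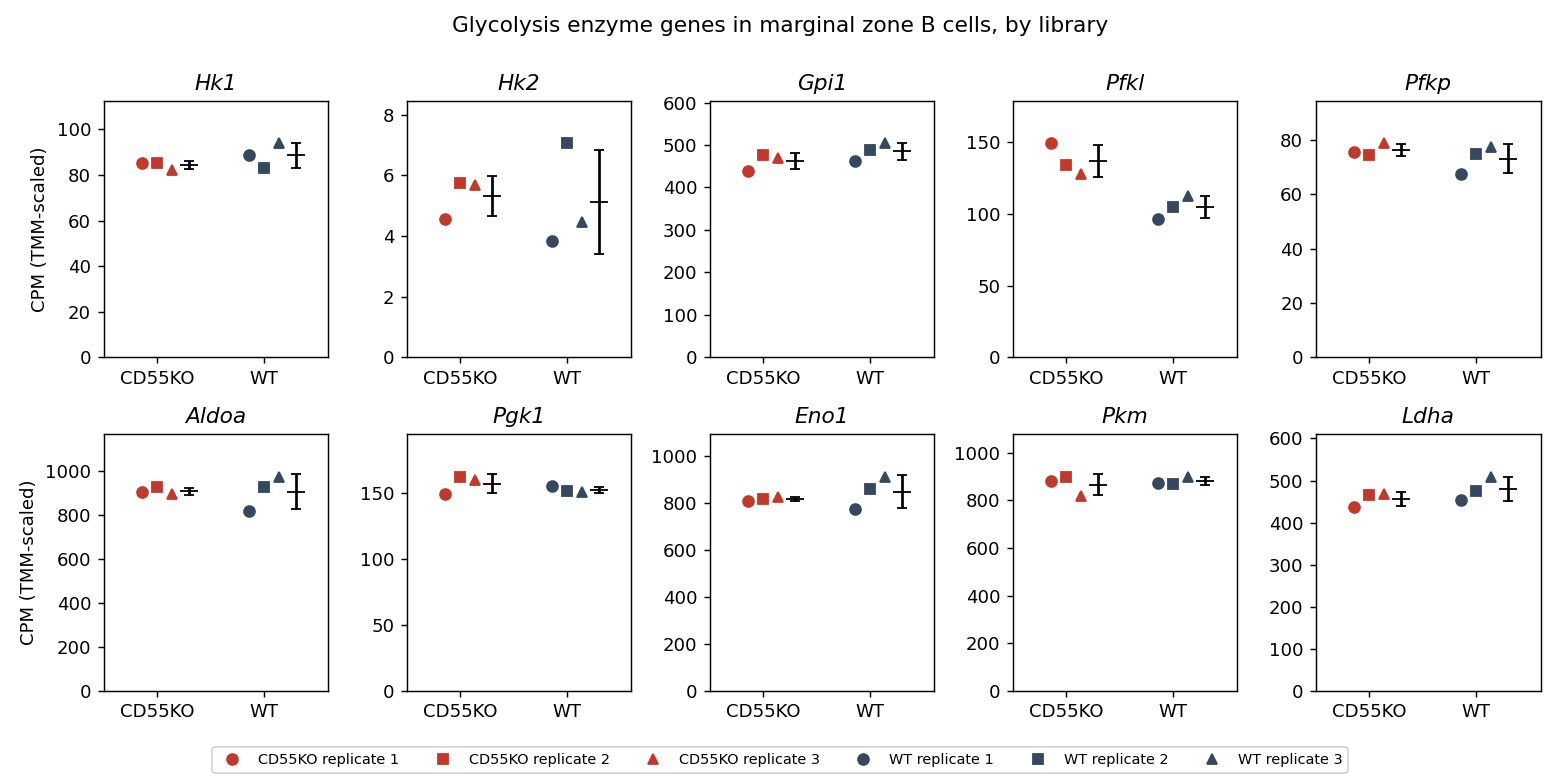
Level of each of the 10 glycolysis genes in CPM (scaled by edgeR's trimmed mean of M values, TMM), 1 panel per gene with its axis from 0. Points are single libraries, CD55KO at the left and WT at the right, and bars give the mean and SD of 3 libraries. The CD55KO points stand above all WT points for Pfkl, while the points of the genotypes overlap for the other 9 genes.

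Hexokinase takes glucose into the pathway by adding a phosphate. Hk1 (chr10:62268855-62379908, minus strand), the constitutive isoenzyme, had 85.4, 85.4 and 82.3 CPM in CD55KO replicates 1, 2 and 3, against 89.0, 83.0 and 93.9 CPM in WT replicates 1, 2 and 3. The libraries of the genotypes overlapped, and the log2 fold change of CD55KO over WT was -0.07 ± 0.07 (SE; adjusted p = 0.857 in edgeR's test). Hk2 (chr6:82725025-82774454, minus strand), the isoenzyme induced in muscle, tumours and activated lymphocytes, had 4.55, 5.75 and 5.67 CPM in CD55KO libraries and 3.84, 7.06 and 4.48 CPM in WT libraries. These came from only 79 to 221 counts, WT replicate 2 was the highest of the 6 and WT replicate 1 the lowest, and the log2 fold change was 0.04 ± 0.23 (SE; adjusted p = 0.989 in edgeR's test). Its 95% interval was wide, from 0.740-fold to 1.44-fold, so a difference of moderate size was not detectable for Hk2 in these libraries. Without WT replicate 1 its log2 fold change was -0.12.

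Gpi1 (chr7:34201330-34230336, minus strand) encodes glucose-6-phosphate isomerase, which makes fructose 6-phosphate. Its levels were 439, 476 and 470 CPM in CD55KO libraries and 463, 488 and 504 CPM in WT libraries. The ranges overlapped, with the lowest value in CD55KO replicate 1 and the highest in WT replicate 3. Its log2 fold change came to -0.07 ± 0.08 (SE; adjusted p = 0.888 in edgeR's test).

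Phosphofructokinase adds the second phosphate and commits the sugar to glycolysis. The enzyme is a tetramer of liver-type, platelet-type and muscle-type subunits, encoded by Pfkl, Pfkp and Pfkm. Pfkl (chr10:77986947-78010083, minus strand) had 4070, 3307 and 3650 counts in CD55KO replicates 1, 2 and 3, against 1991, 3289 and 3168 counts in the WT replicates in the same order. After scaling this was 149, 134 and 128 CPM in CD55KO libraries and 96.7, 105 and 113 CPM in WT libraries, or 137 ± 11.0 and 105 ± 7.92 CPM (SD, n = 3 each). All 3 CD55KO libraries lay above all 3 WT libraries, with CD55KO replicate 1 the highest and WT replicate 1 the lowest. Among all 13794 genes tested, 14.1% had libraries that did not overlap between genotypes, 7.24% with CD55KO higher, and among the 10 glycolysis genes Pfkl was the only such gene, with none in the other direction, beside 6.84% of all genes. The log2 fold change of Pfkl was 0.39 ± 0.08 (SE), a fold of 1.31 with a 95% interval from 1.16 to 1.47, and its unadjusted p was 0.000207, the 57th smallest of all genes. With the adjusted p at 0.0501 it was not called by edgeR's test. The adjusted p ran from 0.00236 to 0.263 over the other settings tried. It was below 0.05 with the DESeq2 Wald test (0.00549), with no count filter (0.00236) and with a stricter filter (0.0384), settings that called 1.00%, 0.977% and 0.502% of all genes, and above it under the rest. The log2 fold change was between 0.32 and 0.44 when each library was left out in turn. Without WT replicate 1 it was 0.33, with the largest of these adjusted p-values, 0.263.

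Pfkp (chr13:6579768-6648777, minus strand) had 75.5, 74.4 and 78.8 CPM in CD55KO libraries and 67.3, 74.9 and 77.2 CPM in WT libraries. The genotypes overlapped, and only WT replicate 1 was below the others. Its log2 fold change came to 0.06 ± 0.08 (SE; adjusted p = 0.905 in edgeR's test), and 0.0033 without WT replicate 1. Exons of Pfkp share 748 bases with Pitrm1 on the opposite strand, which the library kit does not tell apart. Opposite-strand overlaps were also present for Gpi1 (741 bases, Gm26762), Hk1 (157 bases, Hk1os) and Aldoa (25 bases, Fam57b). Pkm shares 767 exon bases with Gm49759 on the same strand. Pfkl shares no exon base with another annotated gene and has no near-identical copy.

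Because both subunit genes were measured in the same libraries, their ratio does not depend on the scaling between libraries. There were 1.98, 1.80 and 1.62 Pfkl counts per Pfkp count in the CD55KO libraries, against 1.44, 1.40 and 1.46 in the WT libraries. The ratio averaged 1.80 ± 0.177 in CD55KO cells and 1.43 ± 0.0282 in WT cells (SD, n = 3 each), with no overlap, and the WT libraries lay close together. Against the other 9 glycolysis genes summed, Pfkl had 3.94, 3.42 and 3.36 counts per 100 in CD55KO libraries and 2.62, 2.67 and 2.73 per 100 in WT libraries. Divided by transcript length, Pfkl made up 67.8, 65.1 and 63.3% of the summed phosphofructokinase subunit level in CD55KO libraries and 60.2, 59.9 and 61.0% in WT libraries. The share from Pfkp was 32.8 ± 2.11% in CD55KO and 37.9 ± 0.476% in WT (SD, n = 3 each), and that from Pfkm was 1.77 ± 0.572% in CD55KO and 1.69 ± 0.408% in WT (SD, n = 3 each). The summed level of the 3 subunit genes was 59.0, 55.1 and 54.2 CPM per kilobase in CD55KO libraries and 43.1, 47.0 and 49.5 CPM per kilobase in WT libraries. For the Pfkl ratios, the Pfkl and Pfkp shares and this sum the genotypes did not overlap, and a two-sided exact permutation test gave p = 0.1, the smallest that 3 against 3 libraries can give (0.15 after Benjamini-Hochberg adjustment over the 9 isoenzyme measures). The Pfkm share had an exact permutation p of 0.9. These measures were chosen after the level of Pfkl was known and describe the same Pfkl counts, so they are not further evidence for its difference.

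**Figure D2:**
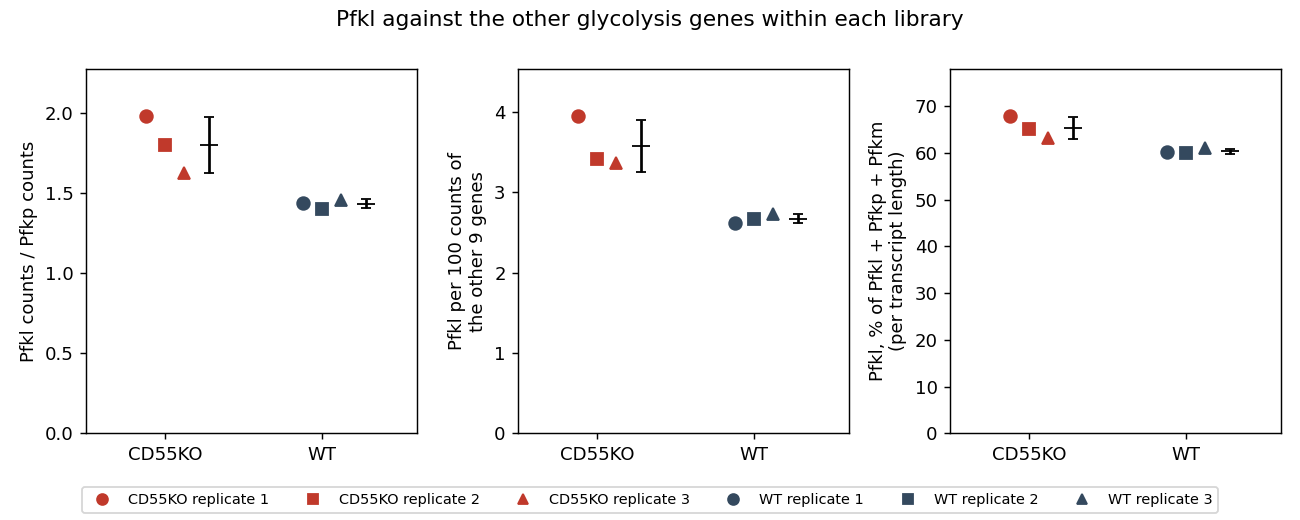
Pfkl against the other glycolysis genes within each library: Pfkl counts per Pfkp count (left), Pfkl counts per 100 counts of the other 9 genes (middle), and the Pfkl percentage of the 3 phosphofructokinase subunit genes per transcript length (right). Points are libraries, bars are the mean and SD of 3, and axes start at 0. The CD55KO points lie above the WT points in all 3 panels, from 1.62 to 1.98 in CD55KO and from 1.40 to 1.46 in WT at the left.

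Aldoa (chr7:126795234-126800751, minus strand) encodes aldolase A, which splits the phosphorylated sugar into 2 triose phosphates. It had 902, 925 and 895 CPM in CD55KO libraries and 817, 924 and 972 CPM in WT libraries. The WT libraries enclosed the CD55KO values on both sides. The log2 fold change was 0.004 ± 0.09 (SE; adjusted p = 0.997 in edgeR's test), and -0.06 without WT replicate 1.

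Pgk1 (chrX:106187100-106203699, plus strand), phosphoglycerate kinase, makes the first ATP of the pathway. It had 149, 162 and 160 CPM in CD55KO libraries and 155, 151 and 151 CPM in WT libraries. The lowest and the highest values were both in CD55KO libraries, so the genotypes overlapped, and the log2 fold change was 0.05 ± 0.07 (SE; adjusted p = 0.923 in edgeR's test). The processed pseudogenes Pgk1-rs7 and Gm5537 match the Pgk1 transcript without a difference over 1255 and 1252 bases, so a read inside the match cannot be assigned to 1 of these genes by its sequence. They held 26.3 ± 0.179% of the counts of the group in CD55KO libraries and 27.7 ± 1.22% in WT libraries (SD, n = 3 each).

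Eno1 (chr4:150236721-150248879, plus strand) encodes alpha-enolase, which makes phosphoenolpyruvate. It had 808, 819 and 825 CPM in CD55KO libraries and 774, 863 and 913 CPM in WT libraries. The CD55KO values lay inside the range of the WT values, which spread more widely, and the log2 fold change was -0.06 ± 0.09 (SE; adjusted p = 0.920 in edgeR's test). Without WT replicate 1 it was -0.12. Of 7 near-identical copies 2 had at least 10 counts, the protein-coding Eno1b at 99.5% identity and the processed pseudogene Gm4735 at 99.6%. The copies held 15.9 ± 0.419% of the counts of the group in CD55KO and 16.5 ± 0.0956% in WT libraries (SD, n = 3 each). The stretches of Eno1 (chr4:150246583-150246672, plus strand) and Gm4735 (chr2:80837821-80837910, plus strand) below differ at the base in capitals, and only reads that cover such a base carry information on which gene they came from.
Eno1: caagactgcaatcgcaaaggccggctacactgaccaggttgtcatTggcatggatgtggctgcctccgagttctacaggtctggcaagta
Gm4735: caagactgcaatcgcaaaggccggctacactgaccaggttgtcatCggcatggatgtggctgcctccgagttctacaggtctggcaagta

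The counts of these copies were added to their parent genes in another fit, and none of the 10 glycolysis genes was called there, beside 0.399% of all genes. Copies held at most 0.927% of the counts for Gpi1, at most 0.395% for Pkm and at most 0.139% for Aldoa and Ldha. Hk1, Hk2, Pfkl and Pfkp had no copy of at least 90% identity over at least 500 bases.

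Pkm (chr9:59656368-59679375, plus strand) encodes muscle-type pyruvate kinase, which releases pyruvate and makes ATP. Its levels were 881, 899 and 819 CPM in CD55KO libraries and 875, 869 and 899 CPM in WT libraries. The genotypes overlapped, with both extremes in CD55KO libraries, and the log2 fold change was -0.02 ± 0.08 (SE; adjusted p = 0.976 in edgeR's test). The counts are per gene, so the spliced forms of Pkm were not told apart.

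Ldha (chr7:46841475-46855627, plus strand) encodes lactate dehydrogenase A, which makes lactate. It had 438, 466 and 467 CPM in CD55KO libraries and 453, 476 and 509 CPM in WT libraries. The ranges overlapped, CD55KO replicate 1 being the lowest and WT replicate 3 the highest. CD55KO over WT, its log2 fold change was -0.07 ± 0.08 (SE; adjusted p = 0.892 in edgeR's test). Neither Ldha nor any other of the 10 genes lies on chromosome 1, which carries Cd55.

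Over the whole set, 0 of the 10 genes were called by edgeR's quasi-likelihood test at an adjusted p under 0.05, beside 0.399% of all 13794 genes, or 55 genes. In CD55KO cells 19 genes (0.138%) rose and 36 (0.261%) fell. At an unadjusted p under 0.05 there was 1 gene of the 10, Pfkl, beside 8.60% of all genes. The DESeq2 Wald test called 1 of the 10, Pfkl, beside 1.00% of all genes, and limma-voom called 0, beside 0.362%. Of the 10 log2 fold changes 5 were above 0 and 5 below (Aldoa turned to below 0 with DESeq2 size factors or library totals), with a median of -0.01, beside a median of 0.0015 over all genes. The median size of the log2 fold change, without its sign, was 0.06 for the 10 genes and 0.12 for all genes. These medians were not matched for expression level, and all genes include those with counts just above the filter. For the 9 genes other than Pfkl, folds lay between 0.952 and 1.04 and adjusted p-values between 0.857 and 0.997. For the 8 of these other than Hk2, all 95% intervals lay between 0.844-fold and 1.16-fold. The intervals give the differences that the libraries allow and do not show equal levels.

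**Figure D3:**
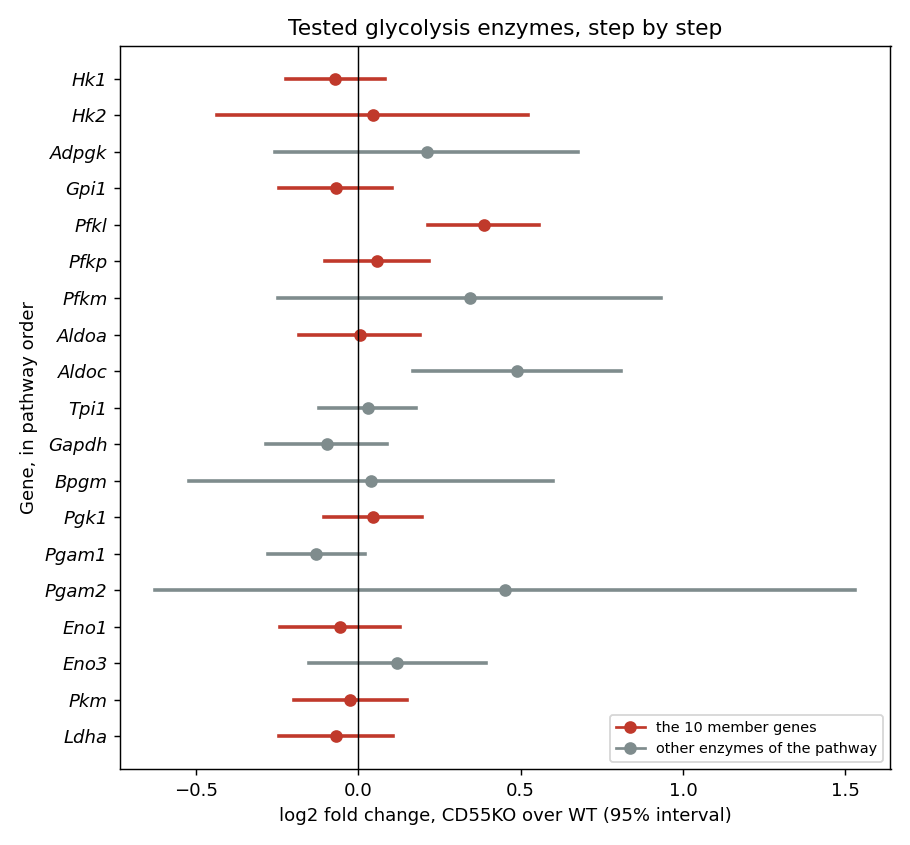
Log2 fold change of CD55KO over WT with its 95% interval from edgeR's fit, for the 10 glycolysis genes (red) and the 9 other tested enzyme genes of the pathway (grey), from the first step at the top to the last at the bottom. The intervals of Pfkl and of Aldoc, at 0.39 and 0.49, lie to the right of 0, while every other interval crosses it. Intervals are not adjusted for the number of genes.

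The genes differed far more from each other than between genotypes. Divided by the length of the principal transcript, levels in CD55KO and WT libraries averaged 600 and 599 CPM per kilobase for Aldoa, 403 and 419 for Eno1, and 356 and 362 for Pkm. Ldha followed with 259 CPM per kilobase in CD55KO and 271 in WT, then Gpi1 with 160 in CD55KO and 168 in WT and Pgk1 with 86.1 in CD55KO and 83.5 in WT. Pfkl had 36.7 CPM per kilobase in CD55KO and 28.1 in WT, Hk1 had 21.9 in CD55KO and 23.0 in WT, Pfkp had 18.4 in CD55KO and 17.7 in WT, and Hk2 had 0.965 in CD55KO and 0.929 in WT. The lowest of the 10 were thus Pfkl, Hk1, Pfkp and Hk2, the single genes of hexokinase and phosphofructokinase. The ranges over all 6 libraries did not overlap between any neighbours in this order. For example, Eno1 lay at 382 to 450 CPM per kilobase and Pkm, next in the order, at 337 to 370. With copies added, Eno1 averaged 480 CPM per kilobase in CD55KO and 502 in WT and Pgk1 117 in CD55KO and 115 in WT, which left the order as it was. The order depends on the transcript chosen for the length.

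**Figure D4:**
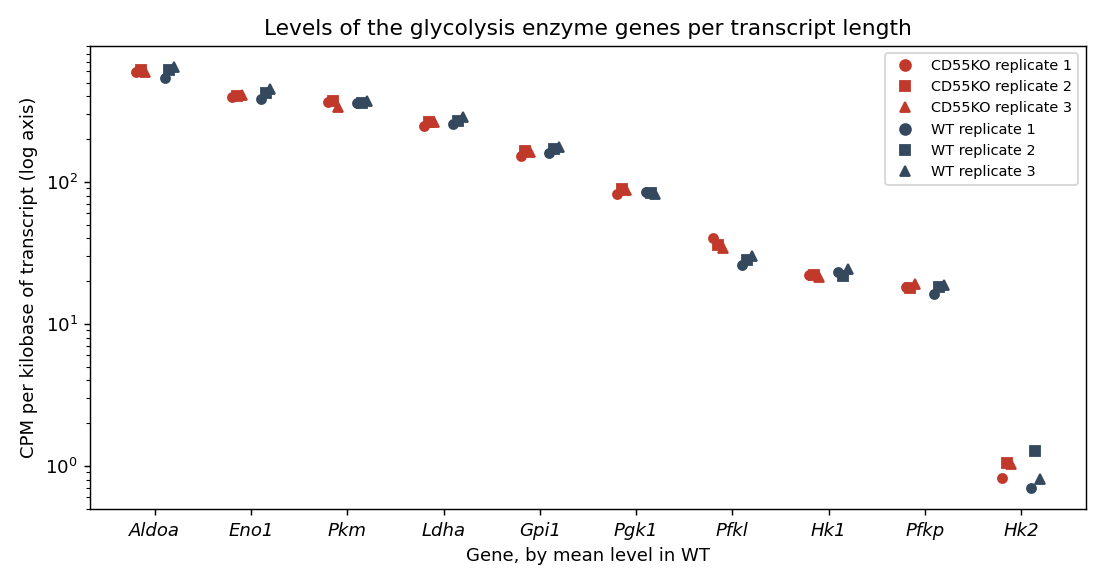
Level of each of the 10 glycolysis genes in CPM per kilobase of its principal transcript, on a log axis, ordered by the WT mean. Each point is a library, CD55KO to the left of WT. Levels run from about 600 CPM per kilobase for Aldoa to below 1.3 for Hk2, and the points of neighbouring genes do not overlap.

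The 10 genes together took up between 0.384 and 0.402% of all counts in CD55KO libraries and between 0.389 and 0.411% in WT libraries. Their summed level was 3970 ± 66.5 CPM in CD55KO cells, against 4023 ± 222 CPM in WT cells (SD, n = 3 each). The spread between libraries was larger in WT for 7 of the 10 genes, beside 49.5% of all genes. The coefficient of variation ran from 1.05 to 12.6% in CD55KO libraries and from 1.63 to 33.3% in WT libraries, Hk2 being the highest in both. Within WT, replicate 3 was the highest for 8 genes and replicate 1 the lowest for 7. The other members did not follow the genotype order of Pfkl, which was the only one of the 10 with every CD55KO library above every WT library.

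**Figure D5:**
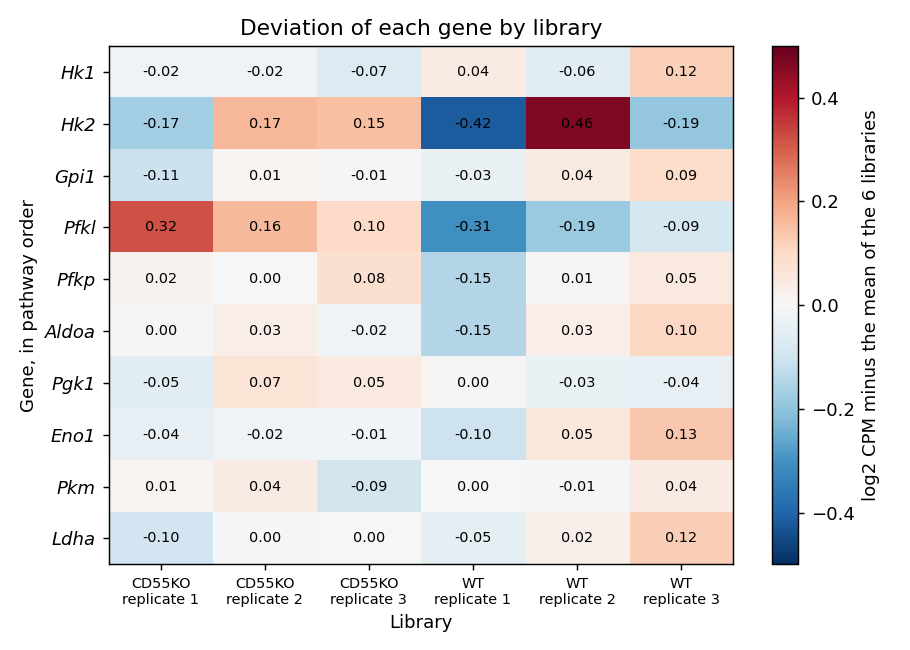
Log2 CPM of each glycolysis gene in each library minus the gene's mean over the 6 libraries, with CD55KO libraries at the left and WT libraries at the right. Red cells are above and blue cells below the gene's mean. Pfkl is the only row that is red in all 3 CD55KO libraries and blue in all 3 WT libraries, and the strongest colours outside it are those of Hk2 in WT replicates 1 and 2, at -0.42 and 0.46.

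The genes outside the lists whose levels over the 6 libraries were most like the mean of the 10 standardised glycolysis genes were Coro1a (Pearson r = 0.988), which encodes an actin-binding protein of leukocytes, Clpp (0.986), a mitochondrial protease, Tmem109 (0.979), Rxrb (0.977), a nuclear receptor, and Nkrf (0.975). These are the highest of 13666 genes compared, of which 89 had r above 0.9, over 6 libraries that differ in depth and in the summed markers of other cells. Coro1a had 2017, 2161 and 2121 CPM in CD55KO libraries and 1930, 2137 and 2253 CPM in WT libraries, so that it too was lowest in WT replicate 1 and highest in WT replicate 3.

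The other enzyme genes of glycolysis were examined in the same fit. Of 20 listed, 9 were expressed enough to be tested, none was called, 7 had a log2 fold change above 0 and 2 below, and the median was 0.12. The rest of the list was not tested because of low counts. Aldoc, the brain-type aldolase, had 14.7, 15.5 and 11.5 CPM in CD55KO libraries and 9.13, 11.5 and 8.99 CPM in WT libraries. CD55KO replicate 3 stood only just above WT replicate 2, and the log2 fold change was 0.49 ± 0.15 (SE; adjusted p = 0.275 in edgeR's test). Aldoc was a small part of the aldolase level per length, 0.823 ± 0.114% in CD55KO and 0.590 ± 0.0854% in WT (SD, n = 3 each; exact permutation p = 0.1). Pgam1, phosphoglycerate mutase, had 83.7 ± 3.90 CPM in CD55KO cells, against 91.6 ± 2.49 CPM in WT cells (SD, n = 3 each), with a log2 fold change of -0.13 (adjusted p = 0.658 in edgeR's test). The processed pseudogene Pgam1-ps2 matches it without a difference over 765 bases. Copies held 9.39 ± 0.289% of the counts of the group in CD55KO and 10.2 ± 0.235% in WT libraries (SD, n = 3 each), and were not added to Pgam1 in any fit.

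Of the 5 further lists around the pathway none had a called gene. With the other glycolysis enzymes these 6 lists held 88 genes, 69 of them tested, of which 7 had an unadjusted p under 0.05 (beside 8.60% of all genes tested) and 36 were above 0 and 33 below. Among 7 tested genes of glucose and lactate transport 4 were above 0 and 3 below, with a median of 0.15. Slc2a6, a hexose transporter, averaged 5.45 ± 1.29 CPM in CD55KO cells, against 3.83 ± 0.314 CPM in WT cells (adjusted p = 0.525 in edgeR's test), and Bsg, the chaperone of the lactate transporters, averaged 127 ± 12.6 CPM in CD55KO cells, against 143 ± 8.14 CPM in WT cells (adjusted p = 0.581 in edgeR's test). Slc2a1, the main glucose transporter of lymphocytes, had 54.9 ± 3.32 CPM in CD55KO cells, against 56.5 ± 12.4 CPM in WT cells. It was named after its values were seen.

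Among 12 tested genes that control glycolysis 6 were above 0 and 6 below, with a median of 0.004. Egln1, a prolyl hydroxylase that marks HIF proteins for breakdown, had 7.28 ± 0.436 CPM in CD55KO cells, against 8.84 ± 0.787 CPM in WT cells (adjusted p = 0.645 in edgeR's test), and Arnt, the partner of HIF-1 alpha, had 30.7 ± 3.05 CPM in CD55KO cells, against 34.0 ± 1.01 CPM in WT cells (adjusted p = 0.723 in edgeR's test). Among 14 tested hypoxia-induced genes outside glycolysis 10 were above 0 and 4 below, with a median of 0.10. Rbpj, which also encodes the DNA-binding partner of Notch and so belongs to the pathway that MZ B cells need, had 36.7, 35.2 and 30.9 CPM in CD55KO libraries and 25.7, 27.2 and 23.3 CPM in WT libraries. The genotypes did not overlap, and the log2 fold change was 0.43 ± 0.10 (SE; adjusted p = 0.0901 in edgeR's test). Ero1l, an oxidase of the endoplasmic reticulum, had 13.8 ± 2.12 CPM in CD55KO cells, against 16.8 ± 3.30 CPM in WT cells (adjusted p = 0.677 in edgeR's test).

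Downstream of pyruvate, 14 genes of its entry into mitochondria were tested, with 4 above 0, 10 below and a median of -0.05. The pyruvate dehydrogenase kinases, which shut off that entry, lay on opposite sides of 0: Pdk3 had 17.7 ± 0.295 CPM in CD55KO cells, against 21.6 ± 2.49 CPM in WT cells, and Pdk2 had 13.6 ± 0.927 CPM in CD55KO cells, against 11.2 ± 0.597 CPM in WT cells. Their adjusted p-values were 0.438 and 0.556 in edgeR's test. Of 13 tested genes of the pentose phosphate branch and gluconeogenesis 5 were above 0 and 8 below, with a median of -0.02. Pgd, which makes NADPH in that branch, had 94.5 ± 3.76 CPM in CD55KO cells, against 111 ± 5.39 CPM in WT cells, and H6pd had 2.64 CPM in CD55KO cells, against 3.50 CPM in WT cells. Their adjusted p-values were 0.285 and 0.692 in edgeR's test.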

How the data were processed

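The library kit named in the labels' protocols (SMARTer Ultra Low RNA) gives reads without strand. The authors deposited 1 table of estimated counts per gene, with no scaling to a common total; 30.9 to 31.9% of the nonzero values were not whole (tolerance 0.005). DRAGEN, edgeR and limma appear in the submitters' processing notes without roles, and the build behind the counts is not given in the sources read. Positions and transcript lengths come from GENCODE M21 (GRCm38), where 55227 of the 55487 IDs were found.

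Of 55774 rows, 287 repeats were removed and counts were rounded. Genes were kept by filterByExpr (minimum count 10, minimum total 15), which left 13794 and removed 41693. The test of CD55KO against WT used edgeR 4.0.16 under R 4.3.3 (TMM, robust quasi-likelihood F-test, genotype alone, Benjamini-Hochberg over all genes, threshold 0.05). A count of 0 allows up to 3 counts, 0.0958 to 0.146 CPM by library, for counting error only. Alternatives were DESeq2 size factors, library totals, the DESeq2 1.42.0 Wald test, limma-voom (limma 3.58.1), no filter, a stricter filter (50 counts in 3 libraries), the replicate number as a block, and leaving out each library. Adding copies to their parents was chosen after seeing the data. Copies were found with BLAST+ 2.17.0.

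The genes and lists were chosen with earlier results of these data known. Text names the 10 genes, from each other pathway list any called gene or else the 2 with the smallest p, and the 5 genes most like the 10 in pattern. The isoenzyme measures and the copy search were chosen after values were seen. Within a genotype every pair of libraries differed beyond counting noise (chi-square over its degrees of freedom 11.7 to 29.3). A few items of the lists and 1 sequence are not reported here.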

Additional observations from a re-analysis of the deposited data

How the results depend on the processing

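Of 140 results for single glycolysis genes under other settings, 127 kept their direction and side of the threshold. The main count of 55 called genes became 138 with the DESeq2 Wald test (60 higher and 78 lower in CD55KO) and 232 with no count filter (104 higher and 128 lower), and was 37 to 53 when each library was left out. Of the 10 glycolysis genes, 1 was called with the DESeq2 Wald test, with no filter and with the stricter filter, each time Pfkl, and 0 to 0 when a library was left out. Of the genes of the other pathway lists, 1 was called with the DESeq2 Wald test and with no filter, Rbpj in both, and 0 to 0 when a library was left out. The log2 fold change of Aldoa turned to -0.0013 with DESeq2 size factors, -0.0021 with library totals and -0.0014 with the DESeq2 Wald test. With a library left out it ran from -0.064 to 0.059 for Aldoa, from -0.12 to 0.35 for Hk2 and from -0.054 to 0.013 for Pkm, and changed sign for Aldoa without CD55KO replicate 2 or WT replicate 1, for Hk2 when CD55KO replicate 2 or 3, or else WT replicate 1 or 3, was left out, and for Pkm without CD55KO replicate 3. The cause was not tested. Under each other setting the median over all genes moved by less than 0.01 from its reported value. Deviations of same-numbered libraries correlated at 0.07, -0.12 and 0.17, and those of differently numbered ones at -0.23 to 0.17. Pairing by number was thus not evident, but these few values cannot exclude it. With the replicate number as a block 64 genes, 0 of the 10 glycolysis genes and 0 of the other pathway lists were called, with Pfkl at a log2 fold change of 0.39 (adjusted p = 0.0780). Of the 10 genes Hk2 had the fewest counts, 79 to 221 a library, and the widest spread between WT libraries (coefficient of variation 33.3%).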
